A study of Mus musculus with 33 samples.

Results

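The 10 genes described here set the pace of the G1 phase of the cell cycle: the D-type cyclins Ccnd1, Ccnd2 and Ccnd3, their kinases Cdk4 and Cdk6, the pair of cyclin E1 (Ccne1) and Cdk2, and the CDK inhibitors Cdkn1a (p21), Cdkn1b (p27) and Cdkn2c (p18). They were taken by symbol, with no measured value in the rule, and 10 of 10 were found among the 14862 gene rows of a table of read counts in 33 single cells. All cells came from heart ventricles of mice transgenic for mAG-hGem (Azami green geminin), a cell cycle reporter that accumulates in S phase and is destroyed at the end of mitosis. The negative cells carry the transgene as well. The labels give neither the strain, the promoter that drives the reporter nor the number of animals. Cells were dissociated with enzymes and sorted by fluorescence at embryonic day 14.5 (E14.5) or postnatal day 5 (P5). With 10 mAG-hGem positive and 11 negative cells at E14.5 and 6 of each at P5, the groups are called embryonic positive, embryonic negative, neonatal positive and neonatal negative below. A cell was accepted as a cardiomyocyte when PCR on its cDNA found Tnnt2, and the series is titled for a study of Ect2 and failed cytokinesis in heart muscle cells.

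A growing cell makes D-type cyclins, which bind and activate Cdk4 or Cdk6, and these kinases begin the phosphorylation of the retinoblastoma protein that frees E2F transcription factors. E2F switches on cyclin E, cyclin E with Cdk2 completes the phosphorylation, and the cell enters S phase. Inhibitors of the INK4 family, such as Cdkn2c, block Cdk4 and Cdk6, whereas Cdkn1a and Cdkn1b bind cyclin and CDK together. Heart muscle cells divide before birth and largely leave the cell cycle in the first days after it, when their inhibitors and cyclins are known to shift.

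Levels are given as CPM, reads per 1000000 reads of a cell, or, for a group, the summed reads of its cells per 1000000 of their summed total. Each sample is 1 cell and no animal is named, so each group counts as 1 sample, nothing below has a test between groups, and intervals (95%) cover counting error only. Totals per cell ran from 2545036 to 38465225 reads, so that 10 CPM stood for at least 25.5 reads. Summed markers of cell type were read before the genes. Cardiomyocyte markers led in 10 of 10 embryonic positive, 10 of 11 embryonic negative and 5 of 6 neonatal positive cells. They led in 0 of 6 neonatal negative cells, where their sum was 0.69 to 3292 CPM. There the cardiomyocyte gene Myh7 had no read in 6 of 6 cells, but Tnnc1 (at most 3266 CPM), Myl2 and Myl3 each reached 10 CPM in 3. Tnnt2, the gene of the PCR check, ran from 0 to 128 CPM (median 3.37) and reached 10 CPM in 2 of 6. Endothelial markers led in 5 of the 6 neonatal negative cells (2230 to 13051 CPM), and in L2N12 fibroblast and mural markers led (19403 CPM, against 298 CPM endothelial). Of 7 listed red blood cell markers, only 4 were in the count data. The haemoglobin gene Hbb-b2, outside that list, had 2449 CPM in L1N3, above the 2230 CPM of its endothelial markers, and 1954 CPM in L2N10. The neonatal negative cells thus go against their label, and their values are given without being read as those of cardiomyocytes. The neonatal positive cell L2P12 also lacked the label's profile, with 116 CPM of cardiomyocyte and 2605 CPM of endothelial markers. In the embryonic negative cell N10, fibroblast and mural markers (46245 CPM) were above cardiomyocyte markers (22621 CPM). The neonatal positive cell L2P10 was led by cardiomyocyte markers but had 30.1 CPM of summed G2/M transcripts, against at least 11935 CPM in the other 5 neonatal positive cells.

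**Figure D1:**
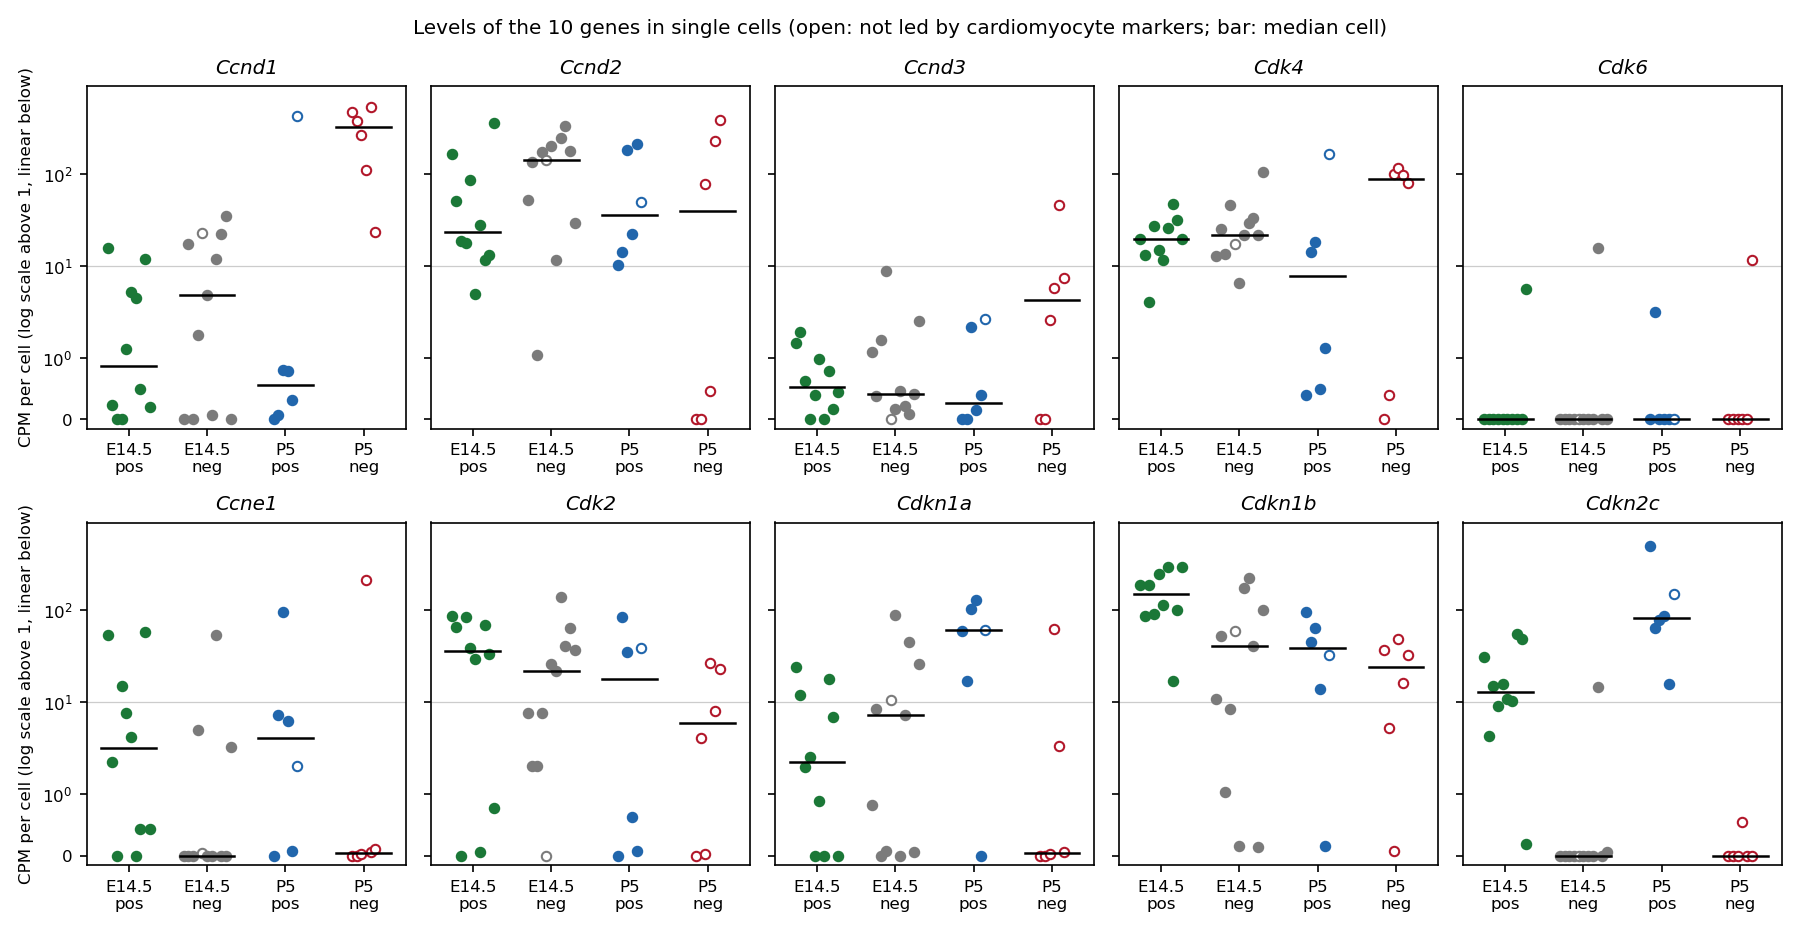
Each point is the CPM of 1 gene in 1 cell (log scale above 1, linear below), by group, with a bar at the median cell and open points for cells not led by cardiomyocyte markers. Cdkn2c lies at 0 in nearly all negative cells, Cdkn1a is highest in the neonatal positive cells, and single open points carry much of Ccnd1 and Cdk4 in neonatal positive cells.

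Ccnd1, cyclin D1, which links growth signals to Cdk4 and Cdk6 (chr7:144929931-144939831, minus strand, GRCm38.p6), was low in nearly all cells led by cardiomyocyte markers. It ranged from 0 to 15.8 CPM in embryonic positive cells (median 0.87), from 0 to 35.2 CPM in embryonic negative cells (median 4.83), from 0 to 422 CPM in neonatal positive cells (median 0.55) and from 23.6 to 529 CPM in neonatal negative cells (median 320). The neonatal negative cells stood highest and all 6 exceeded 10 CPM, as did 2 of 10 embryonic positive, 5 of 11 embryonic negative and 1 of 6 neonatal positive cells. In the order of their summed levels, the range of each group overlapped with that of the next. Summed over cells, embryonic positive cells held 3.78 CPM and embryonic negative cells 13.7 CPM, a log2 ratio of -1.86 (interval -1.99 to -1.73) that moved from -2.57 without G28 to -1.27 without N28. The neonatal positive sum of 104 CPM rested on L2P12, the cell led by endothelial markers, which held 99.6% of the reads. Over the 5 cells led by cardiomyocyte markers it was 0.52 CPM, and the ratio to embryonic positive cells changed from 4.78 to -2.87. The part of cell type in this difference was not tested, and the 7 cells above 10 CPM of Ccnd1 at P5 were the 7 not led by cardiomyocyte markers.

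Ccnd2, cyclin D2, which is abundant in the embryonic heart (chr6:127125162-127152188, minus strand), was the D-type cyclin detected in the most cells, with reads in 31 of 33 against 27 for Ccnd1 and 26 for Ccnd3. Its lowest, median and highest cells had 4.95, 23.4 and 354 CPM among embryonic positive, 1.07, 143 and 332 CPM among embryonic negative, 10.2, 35.9 and 211 CPM among neonatal positive and 0, 39.4 and 381 CPM among neonatal negative cells. The embryonic negative median was the highest, yet the ranges overlapped throughout. The summed levels were 149 CPM in embryonic negative, 144 CPM in neonatal negative and 74.7 CPM in neonatal positive cells, and 74.6 CPM in embryonic positive cells, where G29 alone held 61.1% of the reads. The E14.5 ratio of positive over negative cells was -0.998 (interval -1.03 to -0.97), and it was -2.16 without G29. Between neonatal and embryonic positive cells the log2 ratio was 0.00 (interval -0.04 to 0.04), but it was 1.16 without G29 and -0.49 without L2P10.

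Ccnd3, cyclin D3 (chr17:47505051-47599689, plus strand), hardly appeared in these cells. Its highest cell had 1.90 CPM among embryonic positive, 8.82 CPM among embryonic negative, 2.67 CPM among neonatal positive and 45.3 CPM among neonatal negative cells, and the medians were 0.53, 0.41, 0.27 and 4.21 CPM. Only L2N10, a neonatal negative cell, reached 10 CPM, and it held 71.5% of the reads of its group. For embryonic positive cells, 0 of 10 at this level allows a share of up to 30.8% (exact binomial interval). More than 1 D-type cyclin reached 10 CPM in 2 of 10 embryonic positive, 5 of 11 embryonic negative, 1 of 6 neonatal positive and 3 of 6 neonatal negative cells.

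Cdk4, the main kinase partner of D-type cyclins (chr10:127063535-127067288, plus strand), was read in 32 of 33 cells. Its promoter is shown because it repeats CACGTG, the E-box bound by Myc proteins, 4 times in a short stretch (chr10:127063285-127063533, plus strand, RefSeq, GRCm38.p6, intergenic sequence just before the first exon, E-boxes in capitals). The motif, which reads the same on both strands, was found in 6.02% of 32851 RefSeq promoter windows of 250 bases before the start, and 0.0213% of the windows held 4 or more. The limit of 4 is the number seen in Cdk4 itself, so this last share describes the window and is no test. The window of Cdk6 also held the motif.
Cdk4: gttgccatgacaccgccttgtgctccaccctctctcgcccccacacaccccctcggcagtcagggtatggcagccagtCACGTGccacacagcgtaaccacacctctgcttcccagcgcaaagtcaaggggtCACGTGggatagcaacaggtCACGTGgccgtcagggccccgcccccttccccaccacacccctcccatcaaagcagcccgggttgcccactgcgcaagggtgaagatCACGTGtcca
Such matches describe the sequence and do not show that a factor binds. Cdk4 ran from 4.05 to 46.7 CPM in embryonic positive cells (median 19.5), from 6.52 to 106 CPM in embryonic negative cells (median 21.6), from 0.39 to 166 CPM in neonatal positive cells (median 7.79) and from 0 to 116 CPM in neonatal negative cells (median 88.2). Both E14.5 groups covered much the same range, and 19 of 21 E14.5 cells reached 10 CPM. Their summed levels were 26.8 and 30.8 CPM, a log2 ratio of -0.20 (interval -0.26 to -0.14). This ratio ran from -0.59 without G27 to 0.18 without N30. At P5, 5 of the 7 cells not led by cardiomyocyte markers had 80.3 to 166 CPM, and the other 2, L1N3 and L2N4, had 0 and 0.39 CPM. L2P12 held 88.7% of the neonatal positive reads, and the 5 cells led by cardiomyocyte markers had 0.39 to 18.2 CPM (median 1.27, summed 6.84). The ratio of neonatal to embryonic positive cells was 0.77 with all cells and -1.97 without L2P12, a change of sign.

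Cdk6, the second kinase of D-type cyclins (chr5:3341004-3531008, plus strand), had no read in 29 of 33 cells. It was found in 1 cell of each group, at 5.65 CPM in G29 (embryonic positive), 15.6 CPM in N25 (embryonic negative), 3.15 CPM in L2P3 (neonatal positive) and 11.6 CPM in L2N12 (neonatal negative). G29, N25 and L2N12 were also the cells with the highest Ccnd2 of their groups. A ratio between groups compares single cells here: that of embryonic positive over negative cells was -1.30, at least 5.39 without N25 and at most -6.36 without G29, both set against a floor of 3 reads over the group.

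Ccne1, cyclin E1, the E2F target that activates Cdk2 (chr7:38097984-38107490, minus strand), was high in few cells. The lowest, median and highest cells had 0, 3.21 and 58.7 CPM among embryonic positive, 0, 0 and 54.6 CPM among embryonic negative, 0, 4.14 and 95.9 CPM among neonatal positive and 0, 0.05 and 213 CPM among neonatal negative cells. In each group 1 cell held most of the reads: G28 held 63.9%, N24 91.5%, L2P7 78.7% and L2N9 99.8%. The E14.5 ratio of 0.97 (13.9 against 7.11 CPM) therefore moved to -0.26 without G28 and to 4.35 without N24. Its ratio between neonatal and embryonic positive cells was 0.25 (interval 0.15 to 0.34), and it ran from -1.77 without L2P7 to 1.48 without G28.

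Cdk2, the kinase that cyclin E and then cyclin A activate (chr10:128697938-128705051, minus strand), ranged from 0 to 87.1 CPM in embryonic positive (median 36.4), 0 to 141 CPM in embryonic negative (median 21.8), 0 to 85.4 CPM in neonatal positive (median 17.8) and 0 to 27 CPM in neonatal negative cells (median 6.05). Each group held cells at 0, and no group stood apart. The summed levels of both E14.5 groups were close, 40.1 and 42.0 CPM, a log2 ratio of -0.07 (interval -0.11 to -0.02). The ratio differed between subsets of the E14.5 cells: it was 3.94 among E14.5 cells with title numbers 1 to 10 and -0.73 among those with numbers 21 to 30.

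Among E14.5 cells, high Ccne1 and Cdk2 were mainly found in cells with many S phase transcripts. Over the 21 E14.5 cells, Spearman's rho with the summed CPM of 24 S phase transcripts, the replication genes that E2F drives, was 0.82 for Ccne1 and 0.77 for Cdk2. Within the 10 embryonic positive cells rho was 0.73 and 0.78, and with 24 summed G2/M transcripts it was -0.63 and -0.73. Within the 11 embryonic negative cells rho was 0.66 and 0.54 with the S phase sum and 0.52 and 0.20 with the G2/M sum. The S phase and G2/M sums themselves ran in opposite order in the 10 embryonic positive cells, with rho of -0.89. These values describe single cells and carry no test, and the gene and the sum of a cell share its library, depth and denominator. In the neonatal negative group, L2N4 had the highest S phase sum and no read of Ccne1.

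**Figure D2:**
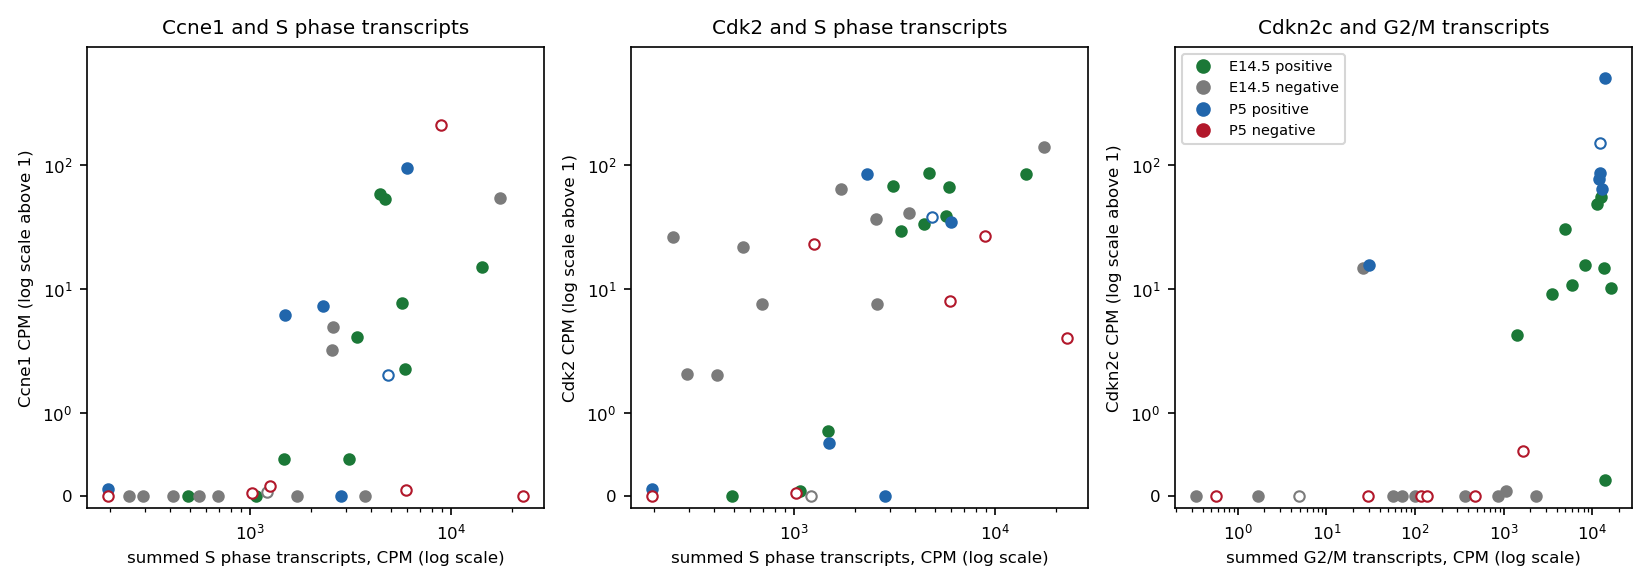
Each point is 1 cell, with the summed CPM of 24 S phase or 24 G2/M transcripts on the x axis (log scale) and the CPM of Ccne1, Cdk2 or Cdkn2c on the y axis (log scale above 1), coloured by group, open where cardiomyocyte markers did not lead. Ccne1 and Cdk2 are high mainly at high S phase sums, and Cdkn2c above 1 CPM is found at G2/M sums over 1000 CPM except in N25 and L2P10.

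Cdkn1a, which encodes p21, the inhibitor of cyclin-CDK complexes that p53 induces (chr17:29090979-29100722, plus strand), had its highest levels in neonatal positive cells. It ran from 0 to 24.1 CPM in embryonic positive cells (median 2.25), 0 to 88.9 CPM in embryonic negative cells (median 7.33), 0 to 128 CPM in neonatal positive cells (median 60.5) and 0 to 63.1 CPM in neonatal negative cells (median 0.05). Among neonatal positive cells 5 of 6 reached 10 CPM, at 16.9 to 128 CPM, and the sixth, L2P10, had none. That is a share of 83.3% (interval 35.9% to 99.6%), against 3 of 10 embryonic positive cells (interval 6.67% to 65.2%). The summed level was 70.7 CPM in neonatal positive and 7.76 CPM in embryonic positive cells, 9.11-fold higher, with a log2 ratio of 3.19 (interval 3.10 to 3.28). Leaving out single cells gave 2.60 to 3.99. The ratio was 3.25 over the neonatal positive cells led by cardiomyocyte markers. Within E14.5 the ratio of positive over negative cells was -0.998 (interval -1.09 to -0.90), with N21 (88.9 CPM) and N25 (45.5 CPM) highest, and it was 0.25 among title numbers 1 to 10 and -1.18 among 21 to 30. In neonatal negative cells, L2N9 held 93.2% of the reads.

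The region before the first RefSeq start of Cdkn1a is printed because the level of Cdkn1a differed with age and it is a classical p53 target. The stretch of 247 bases (chr17:29090729-29090975, plus strand, RefSeq, GRCm38.p6) is upstream of the gene, and capitals mark a match to the core of a p53 element, CATG repeated after 6 bases of any kind, searched on both strands. The match lies 48 to 35 bases before this first start, and the motif was found in 0.490% of the 32851 windows. The window before the second RefSeq start of Cdkn1a (chr17:29093519-29093768) held no match.
Cdkn1a: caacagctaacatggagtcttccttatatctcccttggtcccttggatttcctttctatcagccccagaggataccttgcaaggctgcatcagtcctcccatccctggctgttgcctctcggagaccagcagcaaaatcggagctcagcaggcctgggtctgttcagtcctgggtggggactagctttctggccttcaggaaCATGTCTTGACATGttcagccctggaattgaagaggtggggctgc
The p53 gene itself, Trp53, was low in the summed counts, at 3.9 CPM in neonatal positive and 0.94 CPM in embryonic positive cells, and its log2 ratio of 2.05 turned to -1.08 without L2P12. Mdm2 and Ccng1, listed with Trp53 as genes upstream of cyclin D and p21, had ratios of -0.57 and -0.44. Their summed levels were 32.6 against 48.5 CPM and 133 against 181 CPM. The part of p53 in the Cdkn1a difference was not tested.

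Cdkn1b, which encodes p27, the inhibitor of cyclin-CDK complexes linked with cell cycle exit (chr6:134920401-134925525, plus strand), was the only one of the 10 genes with reads in 33 of 33 cells. Its lowest, median and highest cells had 16.9, 151 and 298 CPM among embryonic positive, 0.15, 40.6 and 222 CPM among embryonic negative, 0.16, 38.9 and 95.5 CPM among neonatal positive and 0.07, 24.2 and 48.8 CPM among neonatal negative cells. All 10 embryonic positive cells exceeded 10 CPM, and 7 of these exceeded every neonatal positive cell. The summed levels were 148, 76.2, 30.8 and 19.4 CPM in the same order of groups, with overlapping ranges between all neighbours. The ratio of neonatal to embryonic positive cells was -2.27 (interval -2.32 to -2.21), 4.81-fold lower, and stayed between -2.63 and -1.98 when single cells were left out. At E14.5 the ratio of positive over negative cells was 0.96 (interval 0.93 to 0.99), and it differed between title numbers 1 to 10 (2.27) and 21 to 30 (0.59). Over 21 E14.5 cells, Cdkn1b had a rho of 0.76 with the G2/M sum, and 0.62 within the positive cells.

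Cdkn2c, which encodes p18, the INK4 inhibitor of Cdk4 and Cdk6 (chr4:109660876-109666756, minus strand), went with the reporter at both ages. It ran from 0.20 to 56.0 CPM in embryonic positive cells (median 12.9), 0 to 14.8 CPM in embryonic negative cells (median 0), 15.8 to 503 CPM in neonatal positive cells (median 82.6) and 0 to 0.54 CPM in neonatal negative cells (median 0). Of 11 embryonic negative cells, 9 had no read, N30 had 1 read and N25 held 99.7% of the reads. Of 6 neonatal negative cells, only L2N9 had reads, 6 in all. Every neonatal positive cell lay above every neonatal negative cell, whereas G29 (0.20 CPM) and N25 made the E14.5 ranges overlap. With each cell thinned to 8000000 reads and 4 shallower cells left out (1 embryonic negative, 1 neonatal positive and 2 neonatal negative), Cdkn2c had a read in 10 of 10, 1 of 10, 5 of 5 and 1 of 4 cells of these groups, against 10 of 10, 2 of 11, 6 of 6 and 1 of 6 unthinned. The summed level was 27.5 CPM in embryonic positive and 1.70 CPM in embryonic negative cells, 16.2-fold higher, a log2 ratio of 4.01 (interval 3.85 to 4.18). It was 3.43 without G27, and 12.22 (interval 9.74 to 17.52) without N25, which leaves 1 read in the negative cells. Among title numbers 1 to 10, where no negative cell had a read, it was at least 8.08 (floor of 3 reads over the group), and 3.88 among numbers 21 to 30. G2/M transcripts moved with the reporter as well: 24 of 24 on the list were past 2-fold higher in embryonic positive cells, beside 22.4% of all genes. Over the 21 E14.5 cells, rho of Cdkn2c with the G2/M sum was 0.71, but 0.07 within the positive cells. The part of cycle stage in the Cdkn2c difference was not tested. Neonatal positive cells (99.3 CPM) were 3.61-fold above embryonic positive cells, a log2 ratio of 1.85 (interval 1.8 to 1.90) that kept between 1.59 and 2.44 without single cells. The highest value, 503 CPM, came from L1P5, the cell with the fewest reads. Even L2P10, with few G2/M transcripts, had 15.8 CPM. The ratio of neonatal positive over neonatal negative cells, 10.42 (interval 9.30 to 11.87), compared cells with unlike markers, and the part of cell type in it was not tested.

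Since Cdkn2c is a known E2F target and had the largest E14.5 ratio of the 10 genes, the stretch before its second RefSeq start is printed. It holds 237 bases inside the gene (chr4:109665373-109665609, minus strand, GRCm38.p6) that no GENCODE exon covers. Capitals mark TTTCGCG, an E2F core searched on both strands, 200 to 194 bases before the start, and this motif was added to the search after the sequence was read. It was found in 0.703% of the 32851 windows. Neither this motif nor TTTNNCGC, the E2F pattern of the first search, was in the window before the first Cdkn2c start or in that of Ccne1. This says only that these letters are not there. TTTNNCGC was found in 4.28% of the windows, among them those of Cdk2 (140 to 133 bases before the start) and Cdk6 (198 to 191 bases before it).
Cdkn2c: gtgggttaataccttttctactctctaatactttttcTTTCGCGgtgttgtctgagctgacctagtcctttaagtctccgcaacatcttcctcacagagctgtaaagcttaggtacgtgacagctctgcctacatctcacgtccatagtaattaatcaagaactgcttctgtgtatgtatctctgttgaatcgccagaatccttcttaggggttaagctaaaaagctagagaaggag
Of the 10 genes, 8 had a RefSeq promoter entry. Ccnd1 and Ccnd2 had none.

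The inhibitors were also counted cell by cell. All 3 reached 10 CPM together in 5 of 6 neonatal positive cells (83.3%, interval 35.9% to 99.6%), 2 of 10 embryonic positive cells (interval 2.52% to 55.6%), 1 of 11 embryonic negative cells and 0 of 6 neonatal negative cells. The 5 neonatal positive cells were those with high G2/M sums, and L2P12 was one of them. Without L2P12 and L2P10, a choice made after the data were seen, the log2 ratios of neonatal over embryonic positive cells were 3.53 for Cdkn1a, -2.005 for Cdkn1b and 1.83 for Cdkn2c. In neonatal positive cells led by cardiomyocyte markers, Ccnd1 was at most 0.80 CPM and Cdk4 at most 18.2 CPM, while Ccnd2 ran from 10.2 to 211 CPM. The highest Ccnd2 was in L2P10, which had no read of Cdkn1a and 0.16 CPM of Cdkn1b.

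**Figure D3:**
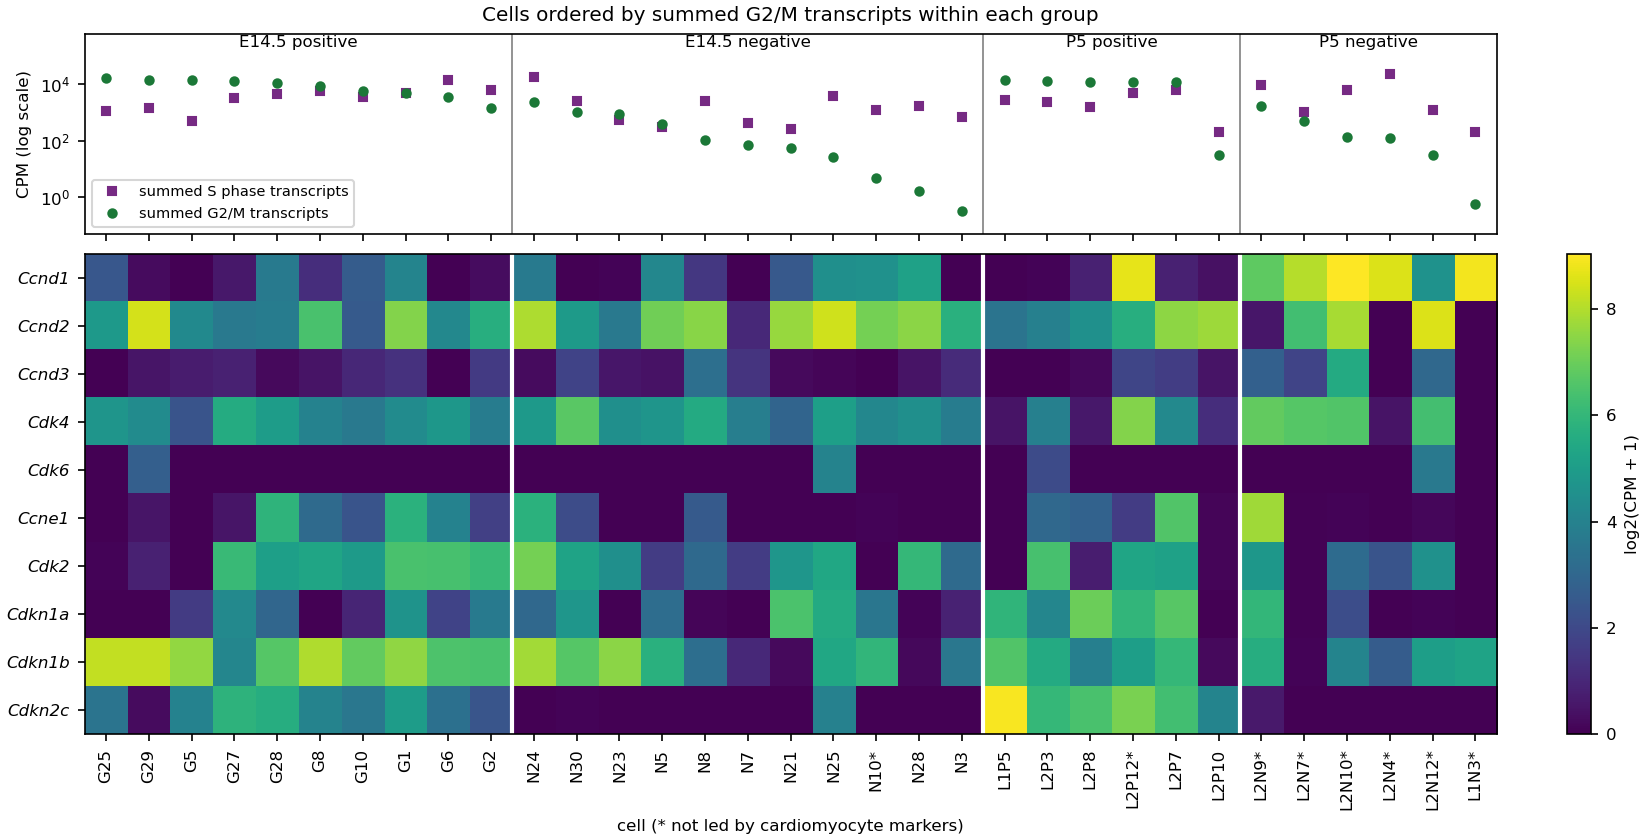
Rows are the 10 genes and columns the 33 cells, ordered by summed G2/M transcripts within each group, coloured by log2(CPM + 1), with the S phase and G2/M sums of each cell above on a log scale. Cdkn1a and Cdkn2c are bright together in 5 of 6 neonatal positive cells, Ccnd1 is bright in L2P12 and the neonatal negative cells, and Cdk6 is lit in 1 cell of each group.

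Counts of the 10 genes past 2-fold were read against all genes. For embryonic positive over negative cells, 1 gene was higher (Cdkn2c), where 22.4% of 12633 genes were, and 2 were lower (Ccnd1 and Cdk6), where 29% were. For neonatal over embryonic positive cells, 3 were higher (Ccnd1, Cdkn1a and Cdkn2c) beside 30.3% of 12262 genes, and 1 was lower (Cdkn1b) beside 40.9%. For neonatal positive over negative cells, 3 were higher (Cdk2, Cdkn1a and Cdkn2c) beside 34.2% and 3 lower (Ccnd1, Ccnd3 and Cdk6) beside 39.4%. For neonatal negative over embryonic negative cells, 4 were higher (Ccnd1, Ccnd3, Ccne1 and Cdk4) beside 33.6% and 3 lower (Cdk2, Cdkn1b and Cdkn2c) beside 41.7%. The shares reached at most 4 in 10, near or below those of all genes, and nothing about the 10 genes is read from them. Cell ranges without overlap were found for Cdkn2c alone, in neonatal positive over negative cells, where 1.43% of all genes lay wholly higher and 0.130% wholly lower. In the other comparisons 0 of the 10 genes did, beside 0.198% higher and 0% lower within E14.5, 0.261% and 0.718% between the positive groups, and 0.669% and 1.53% between the negative groups. The first 2 comparisons share the embryonic positive cells, and the medians of the 10 log2 ratios were -0.55 and 0.51, against -0.16 and -0.39 over all genes.

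**Figure D4:**
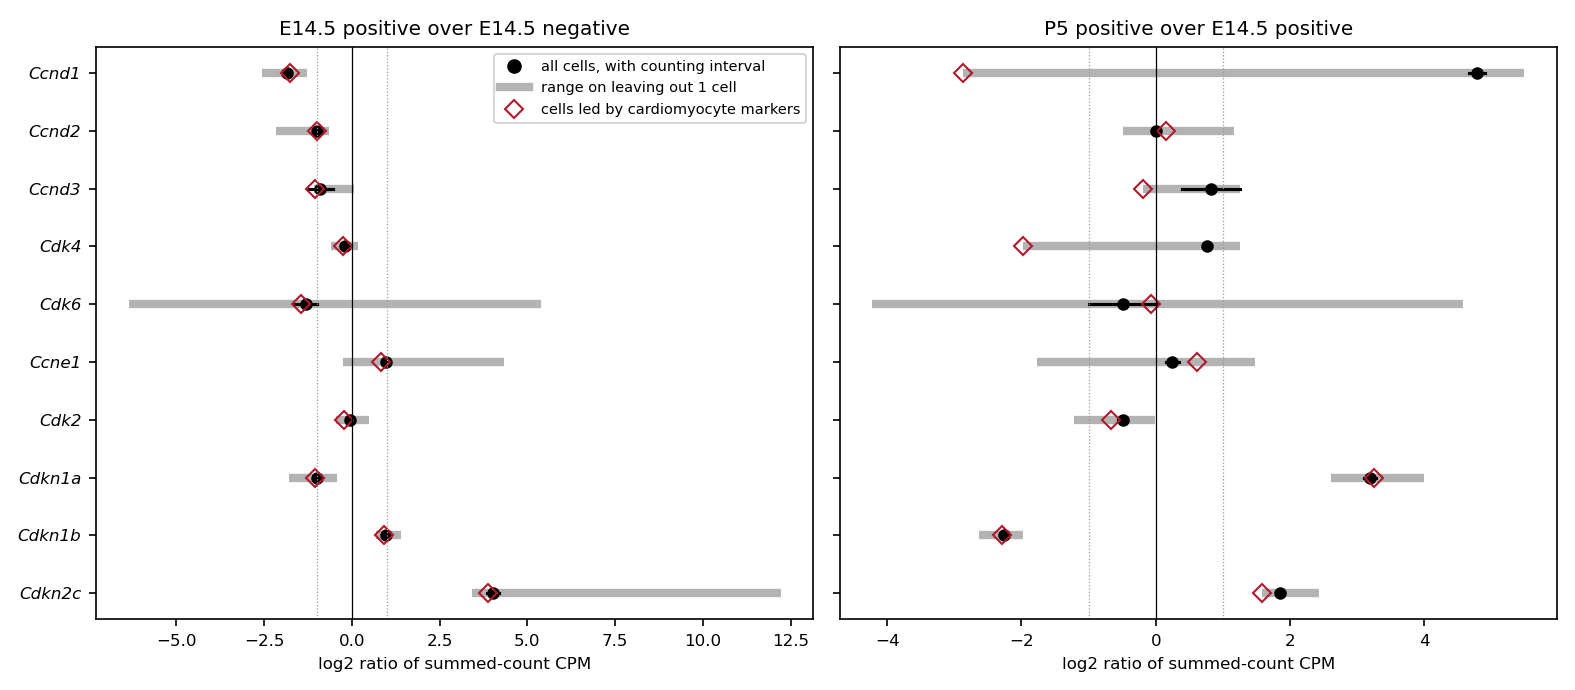
Log2 ratios of summed-count CPM for the 10 genes in 2 comparisons, as points with counting intervals, with grey bars for the range on leaving out 1 cell and diamonds for cells led by cardiomyocyte markers only. On leaving out 1 cell, Cdkn1a, Cdkn1b and Cdkn2c keep their side of 0 in both panels. The bars of Ccnd3, Cdk4, Cdk6, Ccne1 and Cdk2 cross 0 in the left panel. Those of Ccnd1, Ccnd2, Ccnd3, Cdk4, Cdk6 and Ccne1 cross 0 in the right panel.

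Other genes of the pathway came from lists chosen by function. Their counts are read beside all genes, of which 22.4% were past 2-fold higher and 29% lower within E14.5. Between neonatal and embryonic positive cells these shares were 30.3% and 40.9%. Of 10 further genes that act on cyclin D or are inhibitors, 1 was past 2-fold higher (Cdkn2d) and 3 lower (Cdkn2b, Cdkn1c and Fbxo31) in embryonic positive over negative cells. Between neonatal and embryonic positive cells 4 were higher (Cdkn2b, Cdc37, Fbxo4 and Fbxo31) and 3 lower (Cdkn1c, Cul4a and Cul4b). The counts of these 10 genes are near or below the shares of all genes, and nothing about the list is read from them. Of the 4 higher, Cdkn2b had only 0.31 CPM against 0 CPM, and Fbxo4 turned from 1.84 to -0.95 without L2P8. Cdkn2d, the INK4 inhibitor p19, went the way of Cdkn2c: its E14.5 cells ran from 58.0 to 516 CPM when positive (median 238) and from 0.12 to 348 CPM when negative (median 34.6), a log2 ratio of 2.53 (interval 2.49 to 2.56). At P5 it ran from 8.99 to 1393 CPM in positive cells (median 444), with a ratio of 0.96 to embryonic positive cells. Cdkn1c, the imprinted inhibitor p57, went the other way. Its medians were 196 CPM in embryonic positive, 491 CPM in embryonic negative, 0 CPM in neonatal positive and 9.73 CPM in neonatal negative cells. All 10 embryonic positive cells (17.4 to 652 CPM) exceeded all 6 neonatal positive cells (at most 5.75 CPM), a log2 ratio of -8.21 (interval -8.56 to -7.88). L2P7 held most of the few neonatal reads, and without it the ratio was -12.64. Within E14.5 its ratio was -1.33, and -0.72 without N21. Ddb1, an adaptor of cullin ligases, had a neonatal over embryonic ratio of 0.79 that turned to -0.70 without L2P8.

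Among 12 genes of cyclin E and Cdk2 control, 3 were higher (Ccna2, Cks1b and Wee1) and 3 lower (Ccne2, Skp2 and Fbxw7) within E14.5. Without N24, the E14.5 ratio of Ccne2 moved from -3.24 to -0.34 and that of Skp2 from -2.68 to -0.18. In neonatal over embryonic positive cells 2 were higher (Skp2 and Fbxw7) and 4 lower (Cdc25a, Cdk7, Ccnh and Wee1). The ratio of Skp2 there, 1.96, turned to -6.70 without L2P12. Ccna2, the cyclin that takes over Cdk2 in S phase, had a median of 721 CPM in embryonic positive and 2.34 CPM in embryonic negative cells, a log2 ratio of 3.92 (interval 3.89 to 3.95), or 4.76 without N24, and a neonatal over embryonic ratio of -0.17. Wee1, the kinase that restrains Cdk1 and Cdk2, had an E14.5 ratio of 2.16, or 3.26 without N24. Cdc25a, the phosphatase that activates Cdk2, had medians of 29.2 CPM in embryonic positive and 1.15 CPM in neonatal positive cells and a ratio of -3.34, or -6.03 without L2P12.

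Of the 11 pocket protein and E2F genes, 4 were higher (Rbl2, E2f2, E2f5 and Tfdp1) and 2 lower (Rb1 and E2f3) within E14.5. The ratio of Rbl2 turned from 2.55 to -0.47 without G27, and that of E2f5 from 1.36 to -0.26 without G25. In neonatal over embryonic positive cells 1 was higher (E2f2) and 8 were lower, among them E2f1, E2f3 and E2f4 (median -2.17, against -0.39 over all genes). Of all genes, 40.9% were past 2-fold lower there. Of the 8, Rbl2 moved from -3.55 to -0.52 without G27, Tfdp1 from -1.35 to -0.72 without G25 and E2f4 from -1.38 to -0.84 without G2. Rbl1, E2f1, E2f3, E2f5 and E2f6 stayed past 2-fold lower without any single cell. E2f2 was low (4.04 CPM in neonatal positive cells), and its ratio of 2.10 turned to -4.45 without L2P12. E2f3, an activating E2F, had an E14.5 ratio of -2.88 (medians 4.56 and 78.1 CPM in positive and negative cells) that ran from -3.89 without G8 to -2.12 without N28. Of 7 genes upstream of cyclin D and p21, 1 was higher (Mdm2) and 1 lower (Myc) within E14.5, and 1 was higher (Trp53) and 3 lower (Myc, Mycn and Ctnnb1) in neonatal over embryonic positive cells. Mycn, a Myc family factor that drives growth of the embryonic myocardium, had a median of 212 CPM in embryonic positive and 6.52 CPM in neonatal positive cells, a log2 ratio of -4.07 (interval -4.16 to -3.98). Myc had an E14.5 ratio of -1.44 that turned to 0.09 without N21, which also had the highest Cdkn1a of the E14.5 cells.

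**Figure D5:**
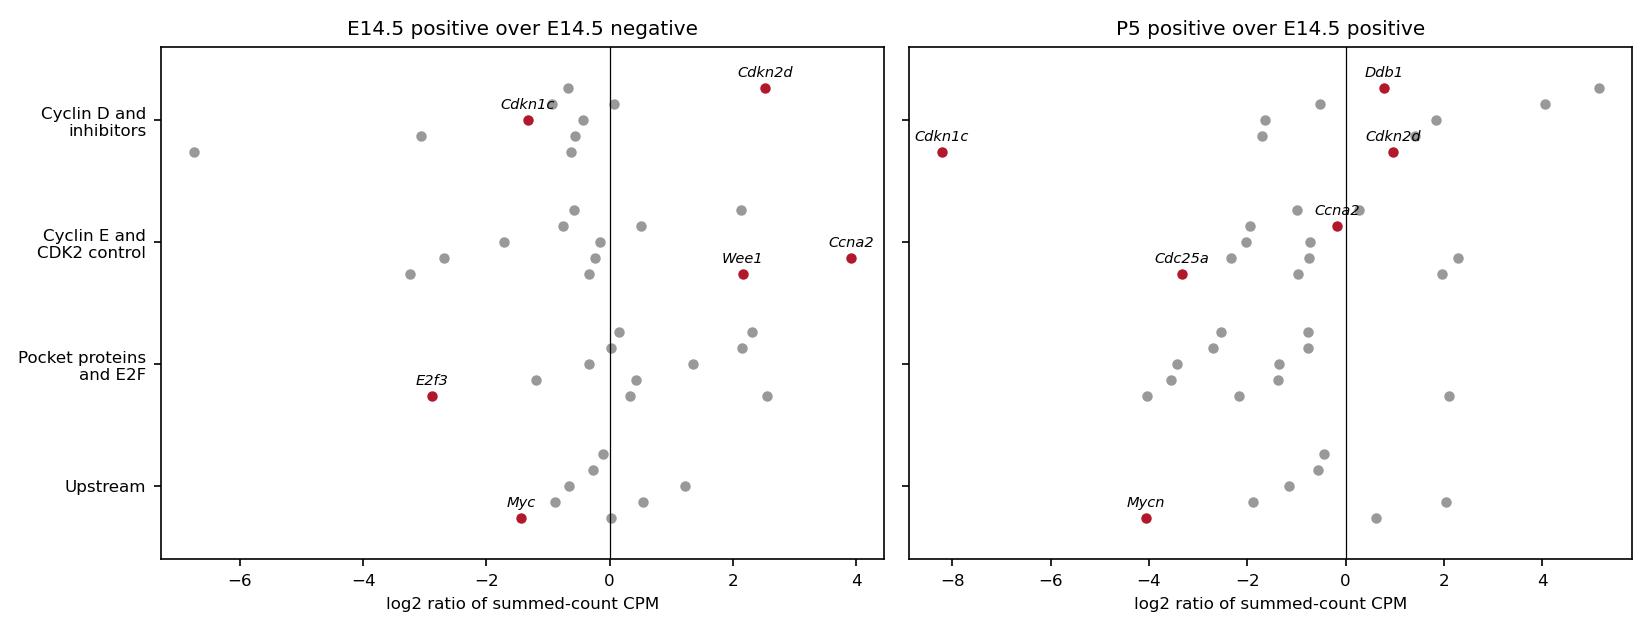
Each point is the log2 ratio of summed-count CPM of 1 gene of the 4 pathway lists in 2 comparisons, with the 3 highest and 3 lowest genes among those at 50 CPM or more in red and named. Most pocket protein and E2F genes lie below 0 in neonatal over embryonic positive cells, and Cdkn1c is the lowest point there, at -8.21.

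For 7 of the 10 genes, those at 10 CPM in at least 7 of 21 E14.5 cells, the most alike genes over these cells were sought among 6069 by Spearman's rho of CPM. Cdkn2c was most like Kif2c (0.87), a kinesin of the mitotic spindle, and H2afx (0.86), a histone variant, and Cdkn1b most like Reep4 (0.85) and Daam1 (0.84). Cdk2 was most like Mcm6 (0.84), a subunit of the replicative helicase, and Mreg (0.81). Cdk4 was most like Ndufa12 (0.91), of the respiratory chain, Ccnd2 most like Ikbkb (0.82), Ccnd1 most like Cdc42se1 (0.79) and Cdkn1a most like Spcs3 (0.74). Such maxima out of so many genes describe these cells only.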

How the data were processed

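The RNA of each cell was amplified as antisense RNA, per the series' design text, and a TruSeq kit was used for the library, per the labels' protocols. CASAVA 1.8.2, STAR 2.4.0j, HTSeq 0.6.1p1 and build mm10 appear in the submitters' processing notes. The authors deposited raw read counts per gene. The annotation, strand use and molecular identifiers are not given in the sources used here. GENCODE vM21 exons on the opposite strand overlap exons of 7 of the 10 genes (not Ccne1, Cdkn1b and Cdkn2c), and without strand such reads cannot be told apart. Amplified reads are not independent molecules, and intervals cover counting error only.

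A group's level is the summed count of its cells over their summed total, as CPM. Log2 ratios have exact Clopper-Pearson intervals, shares exact binomial ones. Genes entered counts past 2-fold with at least 10 reads over both groups, with 0.5 read added to each side. All 10 genes passed in all comparisons. A cell was led by cardiomyocyte markers where their summed CPM exceeded that of each other marker list. Named genes are the 10, the 3 highest and 3 lowest ratios among pathway genes at 50 CPM or more, and the 2 most alike genes (for 4 genes only the first is printed). Trp53 and the pathway genes outside these rules were named after their values were seen. The genes and lists were chosen with earlier results of these data known. The calculation was tested on simulated data (14862 genes, 200 changed, chosen among genes with many reads). Of the 200 ratios, 99.0% came within 0.2 log2 for the E14.5 comparison and 98.5% for the P5 to E14.5 one. The simulation held counting error only, with no variation between the cells of a group. It therefore checks the arithmetic and does not cover the spread between cells. Scaling alternatives used edgeR 4.0.16 and DESeq2 1.42.0 in R 4.3.3, the rest Python 3.11.15 with scipy 1.17.1. The closest pair of cells had a Pearson r of 0.867, so no library was present as 2 cells. Some genes are not reported here.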

Additional observations from a re-analysis of the deposited data

Results flagged for a closer look

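Within groups of 6 or 10 cells, the highest cell of a gene stood apart by Dixon's limit in 12 of 30 combinations of gene and group, a limit that about 1 in 20 groups of normally distributed values pass by chance. These values are not normally distributed, and a gene with reads in 1 cell of a group always passes it, as for Cdk6 in 3 groups and Cdkn2c in P5 negative cells, so the number of such cells is not read against chance. In P5 positive cells these were Ccnd1 at 422 CPM (next 0.80) and Cdk4 at 166 CPM (next 18.2), both in L2P12, the cell led by endothelial markers, Ccne1 at 95.9 CPM in L2P7, Cdkn2c at 503 CPM in L1P5, the cell with the fewest reads, and Cdk6 at 3.15 CPM in L2P3. In P5 negative cells they were Ccne1 at 213 CPM, Cdkn1a at 63.1 CPM and Cdkn2c at 0.54 CPM in L2N9, Ccnd3 at 45.3 CPM in L2N10 and Cdk6 at 11.6 CPM in L2N12. In E14.5 positive cells they were Ccnd2 at 354 CPM and Cdk6 at 5.65 CPM, both in G29.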

How the results depend on the processing

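Each group is 1 sample of few cells, and these settings change which cells or scale are used. No paired analysis was possible because the numbers in the titles only name cells and no test was made. The counts of the 10 genes past 2-fold moved by over 1.5 times as follows. For E14.5 positive over negative cells, the count higher (1) became 3 with the mean or the median of the cells' CPM, 2 with edgeR TMM factors, 4 with title numbers 1 to 10 and 3 at 1.5-fold. The count lower (2) became 4 with the mean, 5 with DESeq2 size factors, 5 with cells led by cardiomyocyte markers, 5 at 1.5-fold and 0 at 4-fold. For P5 over E14.5 positive cells, the count higher (3) became 5 with DESeq2 size factors, with title numbers 1 to 10 or at 1.5-fold. The count lower (1) became 3 with the median, with cells led by cardiomyocyte markers and with the 4 P5 positive cells that also passed 1000 CPM of G2/M transcripts (chosen after seeing the data), and 2 with title numbers 21 to 30. For P5 positive over negative cells, the count lower became 6 at 1.5-fold. For P5 negative over E14.5 negative cells, the count lower became 0 with title numbers 1 to 10, and the count higher became 2 at 4-fold. Leaving out 1 cell gave, for higher and lower in turn, 1 to 3 and 2 to 5, 2 to 5 and 1 to 3, 2 to 5 and 2 to 5, and 3 to 5 and 2 to 5 over the 4 comparisons in this order.

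Of the 40 log2 ratios of the 10 genes (4 comparisons), 20 were past 2-fold, and 6 of these changed sign under at least 1 setting, as follows. Of the other 20, 14 did, among them Ccnd3 and Cdk4 in P5 over E14.5 positive cells (to -0.19 and -1.97 without L2P12), Ccne1 in P5 positive over negative cells (to 8.22 without L2N9), and Ccne1, Cdk2 and Cdkn1a at E14.5, as the report gives. The cause was not tested. Ccnd1 in P5 over E14.5 positive cells became -0.38 with the median, -2.87 without L2P12 (which leaves the cells led by cardiomyocyte markers) and -2.75 with the 4 cells. Without single cells, Ccnd1 thus ran from -2.87 to 5.49. Cdk6 ran from -6.36 to 5.39 (without N25) at E14.5 and from -5.92 to 3.52 (without L2N12) in P5 positive over negative cells, as bounds. In P5 negative over E14.5 negative cells, Ccne1 ran from -7.00 (without L2N9) to 5.37 and Cdkn2c from -5.35 to 3.65 (without N25, which leaves 6 reads against 1, interval 0.60 to 9.17). With title numbers 1 to 10, Cdk2 became 1.63 and Cdkn2c at least 0.44 there. DESeq2 size factors moved the median of all genes from -0.16 to -0.28 at E14.5 and from -0.39 to 0.00 in P5 over E14.5 positive cells. At the lowest totals, 10 CPM rests on 25.5 reads.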
